A study of Homo sapiens with 6 samples.

Results

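Cells with transcripts of myeloid immune genes were selected from 6 single-cell RNA sequencing libraries of human retinal organoid fragments. A barcode was first kept as a cell when it had at least 1000 UMIs (unique molecular identifiers, each counting 1 captured RNA molecule), at least 500 detected genes and at most 20% of its UMIs from mitochondrially encoded genes. A kept cell was selected when TYROBP, LCP1, CTSS, PTPRC and CSF1R together gave at least 3 UMIs, at least 2 of these 5 genes were detected, and the photoreceptor genes NRL and PDE6H had at most 1 UMI each. This rule found 205 of 43757 kept cells. They are called myeloid cells below, and the remaining kept cells of a library are called its other cells. The 7 genes of the rule chose the cells, so their levels describe the choice and were not tested.

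The organoids were grown from the human embryonic stem cell line WA09, which is long established and here carries a tdTomato reporter under CRX, a photoreceptor transcription factor, and they were between day 113 and day 126 of culture. Fragments made by trituration were injected under the retina of normal dog eyes and taken out 3 days later (transplanted), or were fragments of the same organoid batch, triturated alike and left in culture (cultured). Each group has 3 samples, 1 from each of 3 independent experiments called Sets, and no other genotype, drug or age distinguishes them. The labels give neither the age of the dogs nor the number of eyes behind a sample.

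Myeloid cells are the monocytes, macrophages and microglia of the innate immune system. In a healthy retina microglia sit in the inner layers, clear debris and respond to injury, while macrophages and monocytes can enter from blood vessels, the choroid or the vitreous. They arise from blood-forming or yolk sac progenitors rather than from neural retina. Reads of every library were assigned to human genes, and a dog transcript is counted only where its sequence is close enough to a human gene. Non-coding RNAs differ more between species than protein-coding messages do.

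Of the 205 myeloid cells, 204 were in transplanted samples. Transplanted sample 1 held 190 among 7809 kept cells, transplanted sample 2 held 3 of 694 and transplanted sample 3 held 11 of 4818. Cultured samples 1 and 2 held 0 of 17899 and 0 of 10652, and cultured sample 3 held 1 of 1885. With a floor of 3 cells, the counts of 0 allow shares of up to 0.0168% and 0.0282%. The upper limits of their exact 95% binomial intervals are 0.0206% and 0.0346%. As a percentage of kept cells, the transplanted samples had 2.43% (exact 95% binomial interval 2.10 to 2.80), 0.432% (0.0892 to 1.26) and 0.228% (0.114 to 0.408). Every transplanted sample was above every cultured sample, and the interval of transplanted sample 1 did not overlap those of samples 2 and 3. The 1 cell of cultured sample 3 is 0.0531% (0.00134 to 0.295), an interval that overlaps those of transplanted samples 2 and 3. The intervals cover counting error only. The mean share was 1.03% ± 1.22 (SD, n = 3) in transplanted and 0.0177% ± 0.0306 (SD, n = 3) in cultured samples, a difference of 1.01 percentage points. A two-sided exact permutation test over the 6 samples gave p = 0.1, the smallest value that 3 against 3 samples can give. Without transplanted sample 1 the difference fell to 0.313 percentage points. When every cell was thinned to 1000 UMIs before the rule was applied, 69, 1 and 7 cells were selected in transplanted samples 1, 2 and 3 and 0 in each cultured sample, and the difference was 0.391 percentage points.

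The genes of the rule were not equally present. TYROBP, a signalling adaptor of myeloid receptors, was found at 347, 814 and 1255 counts per 1000000 UMIs (CPM) in the summed myeloid cells of transplanted samples 1, 2 and 3, and at no more than 1.47 CPM in the other cells of those samples. LCP1, which bundles actin in blood cells, was at 678, 637 and 1224 CPM. CTSS, a lysosomal protease of antigen-presenting cells, was at 593, 142 and 892 CPM, and PTPRC, the pan-leukocyte antigen CD45, at 105, 70.8 and 302 CPM. CSF1R, the receptor through which M-CSF keeps macrophages and microglia alive, was nearly absent, with 2 UMIs in transplanted sample 1 and 0 in samples 2 and 3. TYROBP was detected in 140 of the 190 myeloid cells of transplanted sample 1 (73.7%) at a median depth of 3232.5 UMIs per cell. The same gene was detected in 0.714% of the cells of that sample with at least 2 NRL UMIs, at a median depth of 5384 UMIs. The rule selects on TYROBP and bars cells with more than 1 NRL UMI. These gaps to the other cells therefore describe the choice and are no check of it.

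The cells near the limit of the rule differed between samples. In transplanted sample 1, the 25 cells with exactly 3 summed UMIs had APOE at 3002 CPM and the 22 cells with more than 10 had it at 1562 CPM, and the 17 cells just outside, with 2 UMIs over 2 genes, had it at 1984 CPM. In transplanted sample 3, 6 of the 11 cells had more than 10 summed UMIs and held 56674 of the 66161 UMIs of all 11. The 3 cells with only 2 of the 5 genes had no UMI of APOE or GLDN, a gene whose level in the rest is given below. The largest single cell held 4.74%, 77.3% and 26.0% of the summed UMIs in transplanted samples 1, 2 and 3, so the values of sample 2 are mostly those of 1 cell. A further 19 cells in transplanted sample 1, 3 in sample 3 and 5 in cultured sample 2 met the limits on the 5 genes but were left out for NRL or PDE6H. Their median depths were 6982, 85036 and 91264 UMIs. The part of doublets (droplets with more than 1 cell) in the selected cells was not tested. Of the 190 cells of transplanted sample 1, 18 were among the 488 highest doublet scores of its 7809 kept cells. In samples 2 and 3 the highest scores were those of 4 of 694 and 186 of 4818 kept cells. None of their 3 and 11 selected cells was among these, which at such shares says little.

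The single selected cell of cultured sample 3 is given apart. Its 3 UMIs came from LCP1 and PTPRC, and it had no UMI of TYROBP, CTSS, APOE or GLDN, which at its depth allows up to 1425 CPM of each. The 3 cells of transplanted sample 3 with only 2 of the 5 genes likewise had no UMI of APOE or GLDN. Genes named as long intergenic non-coding RNA (LINC) or only by a genomic clone gave 5.65% of its 2105 UMIs, against 4.89% in the other cells of that sample and 2.05% in those 3 cells. Its origin was not tested. Genes were compared within transplanted samples, so all gene values below come from their 204 cells.

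Transcripts of LINC and clone-named genes were scarce in the myeloid cells of every transplanted sample. They made up 0.361% (95% interval 0.347 to 0.375) of UMIs in sample 1, 0.885% (0.779 to 1.001) in sample 2 and 1.13% (1.05 to 1.22) in sample 3. The other cells of the cultured sample of the same Set had 0.909%, 2.38% and 4.89%. The ratios of myeloid to cultured cells were 0.397, 0.372 and 0.232, and the mean log2 ratio was -1.62 ± 0.42 (SD, n = 3 Sets). It was below 0 in 3 of 3 Sets, and the two-sided exact sign-flip permutation test gave p = 0.25, the smallest that 3 pairs allow. Against the other cells of the same transplanted library, which had 0.901%, 2.55% and 3.11%, the mean log2 ratio was -1.43 ± 0.10. Groups of other cells picked by marker genes also differed in this share. Glia-like cells, with at least 5 summed UMIs and at least 3 detected genes of RLBP1, SLC1A3, FRZB, DKK3 and SPON1, had 0.794%, 1.90% and 2.48% in the transplanted samples. Each of these was above the value of the myeloid cells in its sample. They are not a pure glial class, since 9 general photoreceptor genes summed to 1213, 4963 and 5101 CPM there. The other cells had 2357, 4383 and 4816 CPM. They were also deep in samples 2 and 3, where 34 and 223 cells held 3085250 and 15174537 UMIs. Pigment epithelium-like cells, defined by RPE65, BEST1, PMEL, MLANA and TYR, had 0.647% in transplanted sample 1 (58 cells), 0.611% in cultured sample 1 (68 cells) and 1.33% in cultured sample 2 (60 cells). The intervals cover counting error only.

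**Figure D1:**
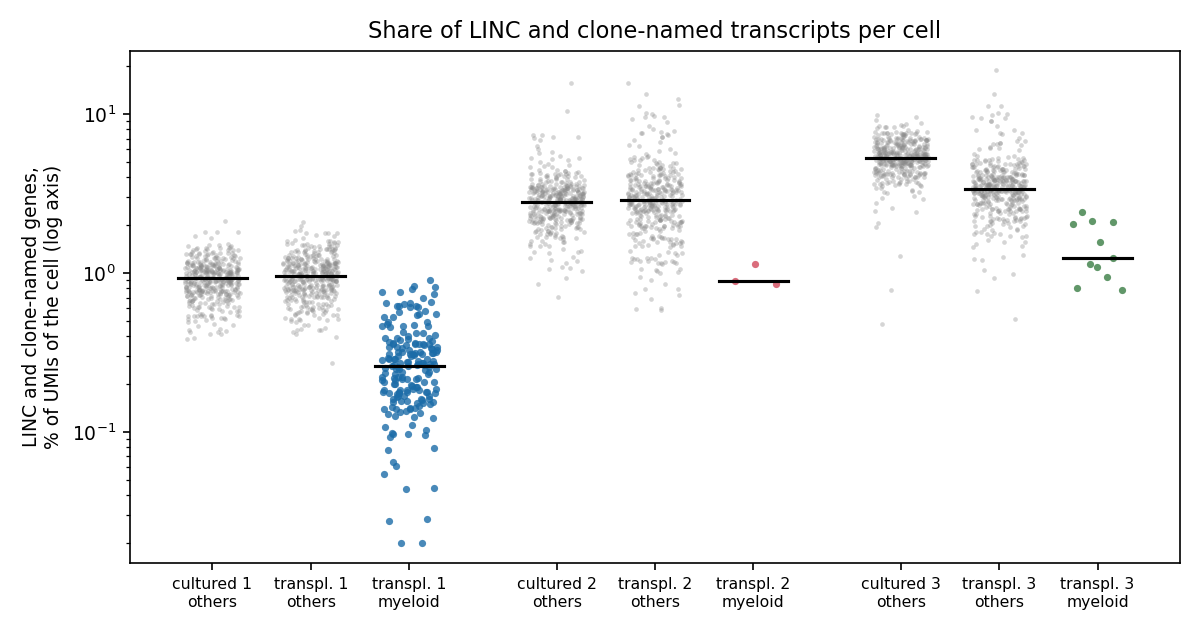
Share of LINC and clone-named genes in the UMIs of single cells, on a log axis, for 3 Sets. Each point is a cell; the other cells (grey) are a random subset of each sample, black bars are medians over all cells, and cells at 0 are drawn at the bottom. The medians of the myeloid cells (coloured) were 0.260%, 0.885% and 1.24%, below the medians of the other cells in every sample.

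The per-cell values overlapped only in part. The median of the myeloid cells in transplanted sample 1 was 0.260%, with a range of 0 to 0.902%, and the median of its other cells was 0.949%. The 1st percentile of the other cells in the cultured sample of the same Set was 0.392%, 0.967% and 2.31%. Below it lay 152 of 190, 2 of 3 and 10 of 11 myeloid cells. Of the other cells in the transplanted samples, 121 of 7619, 22 of 691 and 568 of 4807 lay below it too. In transplanted sample 3 a low share is thus common outside the myeloid cells, and 233 of those 568 cells had more than 1 UMI of NRL or PDE6H.

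Other classes of RNA differed too, lower for non-coding and mitochondrially encoded transcripts and higher for protein-coding genes. MALAT1, a nuclear non-coding RNA that is among the most abundant transcripts of human cells, gave 1.18%, 0.120% and 0.237% of UMIs in myeloid cells and 4.51%, 4.59% and 4.08% in the other cells of transplanted samples 1, 2 and 3. Its share also varied among the other cells. Pigment epithelium-like cells had 2.57% in transplanted sample 1, 2.03% in cultured sample 1 and 1.14% in cultured sample 2. Genes annotated as antisense RNA gave 0.186%, 0.287% and 0.496% in myeloid cells against 0.736%, 1.79% and 2.24% in the other cells. Protein-coding genes gave 98.2%, 98.9% and 98.3% against 93.3%, 91.0% and 90.8%. Mitochondrially encoded genes gave 1.15%, 0.350% and 0.964% of UMIs in myeloid cells and 4.22%, 2.26% and 2.72% in the other cells. In the other cells of cultured samples 1, 2 and 3 they gave 1.69%, 2.71% and 1.26%. The gap to cultured cells was thus smaller in Sets 1 and 3. All 3 samples agreed in direction on each of these classes. The median depth of myeloid cells was 3232.5, 3504 and 2062 UMIs, and that of the other cells was 3454, 3344 and 3440 UMIs. The median number of detected human genes was 1183.5, 1438 and 1308 in myeloid cells against 1648, 1849 and 2005.

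Genes of ribosomal proteins and their close relatives, which are highly expressed in nearly all cells and strongly conserved, were unevenly counted in the myeloid cells. Over 79 such genes with at least 100 CPM in the other cells of each sample, the log2 ratio of myeloid to other cells (on CPM + 10) had an SD across genes of 1.06, 1.45 and 1.16. The same ratio for glia-like cells had an SD of 0.123, 0.132 and 0.114. Glia-like cells are themselves part of the other cells, with 10122261 of 43605568, 3085250 of 6344603 and 15174537 of 41899909 UMIs. This draws their ratio toward 0, and the myeloid sums hold fewer UMIs, so these spreads are not measured alike. RPS20, a protein of the small ribosomal subunit, had the highest ratio of the 79 in each sample, at 9984, 9167 and 6892 CPM in myeloid cells against 1054, 765 and 815 CPM in the other cells. RPS2, of the same subunit, was at 1000.2, 70.8 and 257 CPM against 4040, 2975 and 2543 CPM. RPL10L, a retrocopy of the ribosomal gene RPL10 (GRCh38 chromosome 14, 46651010 to 46651821, minus strand), was at 316, 106 and 529 CPM against 3.21, 0.315 and 0.382 CPM, and reads may be split between it and near-identical copies. The pattern across genes was alike between samples, with Pearson r of 0.797, 0.803 and 0.923 over 79 genes. These are correlations across genes, which are not replicates, and the genes share their libraries.

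**Figure D2:**
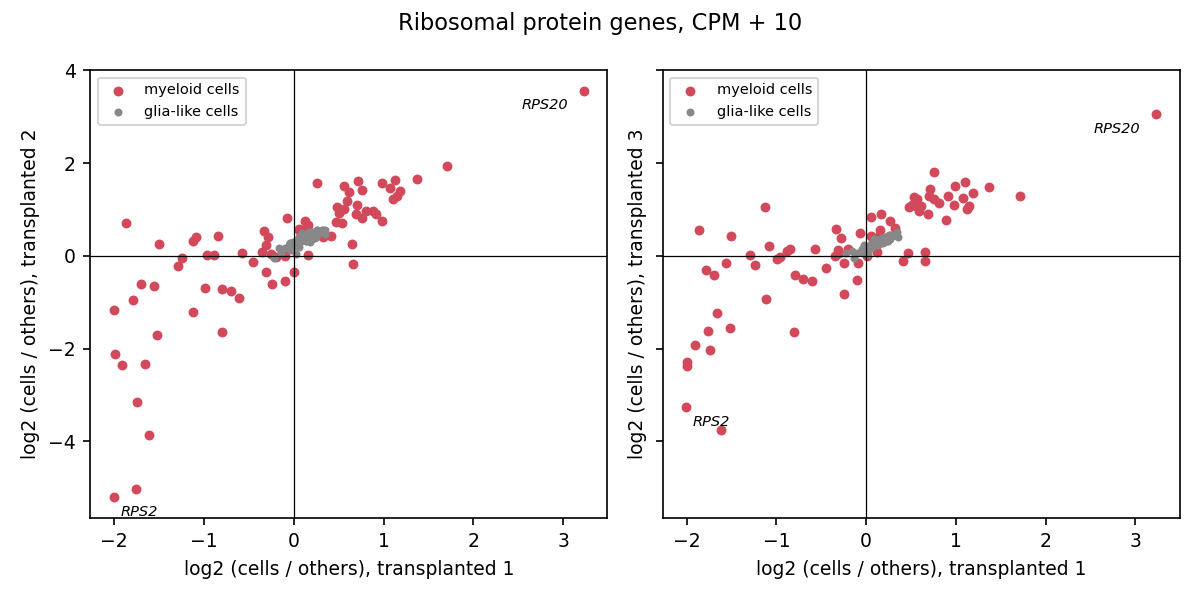
Log2 ratio of summed CPM + 10 over the other cells of the same sample for 79 genes of ribosomal proteins, in transplanted sample 1 (x axis) against samples 2 and 3 (y axes). Red points are myeloid cells and grey points glia-like cells of the same samples. The myeloid points spread along a diagonal with an SD above 1 in each sample, while the glia-like points stay within an SD of 0.132. Glia-like cells are part of the other cells, which draws their points toward 0.

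Myeloid cells were next compared with the other cells of the same sample gene by gene, in summed counts of transplanted samples 1 and 3, which held at least 10 myeloid cells each. Of 16919 genes tested, 371 were higher in myeloid cells (2.19%) and 47 lower (0.278%) at an adjusted p under 0.05 (edgeR quasi-likelihood test with the sample as a block, Benjamini-Hochberg adjustment). The cells were picked on myeloid genes, so genes that accompany those genes had to be higher, and the counts below describe the selected cells and support nothing further. A gene scarce in the other cells passed the low-count filter mainly where myeloid cells had it. Such a gene could hardly be called lower. Counts and medians of tested genes leave out listed genes that were not tested. In the fit, 320 of the 371 genes were higher in both samples and 49 had no UMI in the myeloid cells of one of them. The median log2 difference of all genes was -0.84, and changes are to be read relative to it. It moved to -1.23 when libraries were scaled by total counts without TMM factors. With that scaling 664 genes were higher and 770 lower, so the share of higher calls went from 88.8% to 46.3%, and 368 of the 371 genes remained called higher. Transplanted sample 2 took no part in the fit. There, 282 of 367 higher genes outside the rule were also higher in its 3 myeloid cells (76.8%), as were 18.6% of all genes tested, and all 45 lower genes outside the rule were lower there, as were 81.1% of all genes tested.

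APOE, the lipid carrier of macrophages and reactive microglia, marked the cells without being part of the rule. It was at 2698, 12670.3 and 5940.1 CPM in the myeloid cells of transplanted samples 1, 2 and 3 and at 141, 29.6 and 41.8 CPM in their other cells. The groups did not overlap, and 159 of 190, 3 of 3 and 7 of 11 myeloid cells had a UMI. The log2 difference was 5.90 ± 0.66 (SE, adjusted p = 1.21e-15). With all 3 samples in the fit it was 6.70 and no longer called (adjusted p = 0.0967). GLDN, which encodes gliomedin, known from Schwann cell contacts with axons, was at 779.6, 5910.5 and 1678 CPM against 4.01, 2.52 and 1.31 CPM (log2 9.13 ± 0.90, adjusted p = 7.46e-20). In the kept cells of the 3 cultured samples GLDN was at most 0.781 CPM.

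General myeloid genes were mostly higher. Of 23 tested genes of a pan-myeloid list (29 listed), 16 were higher and 0 lower. Their median log2 difference was 5.83 against -0.84 over all genes. FCER1G, the signalling chain of Fc receptors, was at 115, 354 and 544 CPM in myeloid cells and below 1 CPM in the other cells of all 3 samples (log2 8.84 ± 1.14, adjusted p = 1.22e-11). CYBB, the catalytic subunit of the phagocyte NADPH oxidase, was at 108, 142 and 136 CPM against 0.688, 0.158 and 0.167 CPM. SPI1, the master transcription factor PU.1, was also called, though low, at 26.0, 35.4 and 90.7 CPM. AIF1, which encodes the microglial stain IBA1, was at 24.7, 177 and 212 CPM against at most 0.946 CPM. RGS1, a regulator of G-protein signalling in leukocytes, was at 109.6, 389 and 635 CPM against at most 0.573 CPM, and had no UMI in the other cells of the cultured samples. Its log2 difference was 9.56 ± 1.17 (adjusted p = 5.2e-13).

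**Figure D3:**
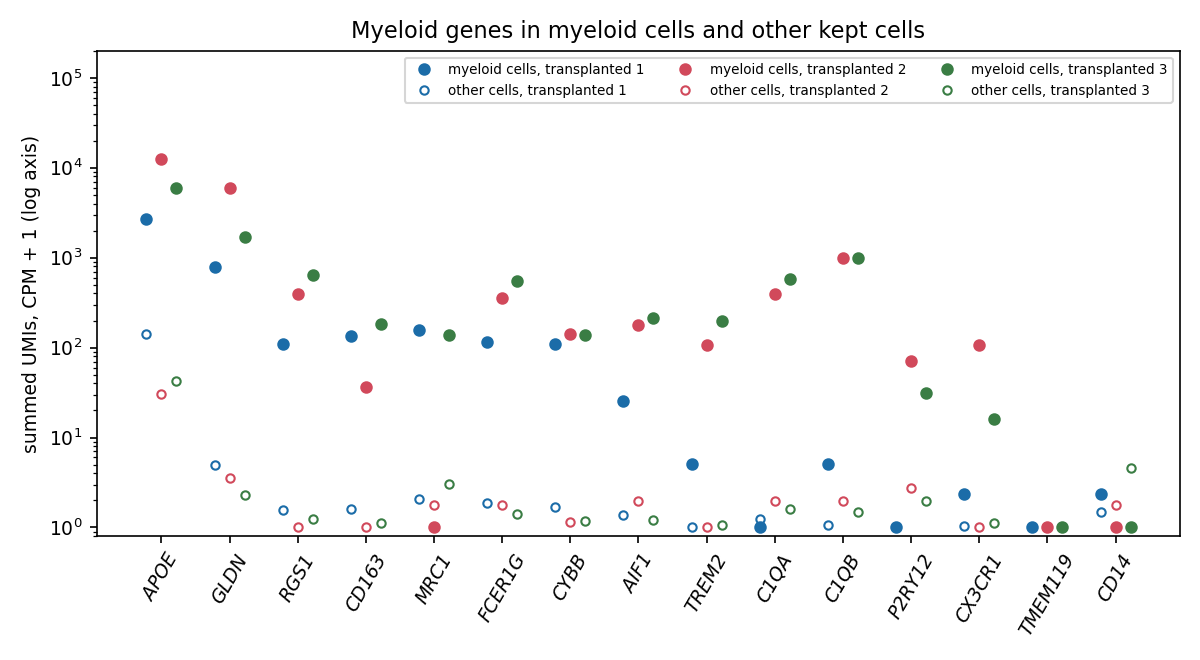
Summed level of 15 myeloid genes in transplanted samples 1 (blue), 2 (red) and 3 (green), as CPM + 1 on a log axis, with filled points for myeloid cells and open points for the other cells. APOE and GLDN were at 779.6 CPM or more in the myeloid cells of each sample, while TMEM119 was at 0 in all and CD14 at 1.37, 0 and 0 CPM.

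Genes that separate microglia from other macrophages gave a mixed picture. Of 9 tested genes of the microglia list (15 listed), 4 were higher, among them SLC2A5, GPR34 and MERTK. The median log2 was 3.16 (3.17 when genes with no UMI were set to their bound). TMEM119, a gene largely restricted to microglia, had no UMI in any myeloid cell, which allows up to 4.11 CPM in transplanted sample 1. P2RY12, the purinergic receptor of resting microglia, was at 0, 70.8 and 30.2 CPM in samples 1, 2 and 3, and CX3CR1, the fractalkine receptor, at 1.37, 106 and 15.1 CPM. SLC2A5, a fructose transporter of microglia, was at 5.48, 425 and 106 CPM. Without sample 1 in the fit, and with samples 2 and 3 in its place, GPR34 (adjusted p = 0.209) and MERTK (adjusted p = 0.0713) were not called.

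Of 10 tested monocyte and macrophage genes (20 listed), 7 were higher: CD163, CD36, MRC1, LYVE1, PLAC8, THBS1 and MSR1. The median log2 was 4.61. CD163, the haemoglobin scavenger receptor of tissue macrophages, was at 133, 35.4 and 181 CPM against at most 0.596 CPM (log2 9.17 ± 1.22, adjusted p = 5.46e-11), but was not called with samples 1 and 2 (adjusted p = 0.0853). MRC1, the mannose receptor, was at 156, 0 and 136 CPM against 1.05, 0.788 and 2.03 CPM. LYVE1, a hyaluronan receptor of resident macrophages, was at 2.74, 106 and 90.7 CPM, so its call rests mostly on sample 3. CD14, the lipopolysaccharide co-receptor of monocytes, was at 1.37, 0 and 0 CPM. The neutrophil and monocyte alarmins S100A8 and S100A9 had no UMI in myeloid cells. LYZ, lysozyme, was at 0, 0 and 30.2 CPM.

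Of 18 tested genes of the list of lipid-handling and disease-associated microglia genes (22 listed), 4 were higher: TREM2, FABP5, FABP4 and PLIN2. The median log2 was 1.12 (1.27 with genes without a UMI at their bound). FABP5, a fatty acid carrier, was at 7171, 7574 and 3340.3 CPM against 774, 263 and 223 CPM (log2 3.76 ± 0.55, adjusted p = 2.8e-09) and was found in 189 of 190 myeloid cells of sample 1. It was not called without the sample term (adjusted p = 0.215). PLIN2, which coats lipid droplets, was at 515, 1026 and 846 CPM against 48.9, 25.5 and 25.9 CPM. It was not called with samples 1 and 2 alone (adjusted p = 0.0713). TREM2, the lipid receptor that signals through TYROBP, was at 4.11, 106 and 196 CPM against at most 0.0716 CPM (log2 10.34 ± 1.24, adjusted p = 1.67e-13), with 3 UMIs in sample 1. FABP4, a fatty acid carrier of adipocytes and macrophages, was at 518 CPM in sample 1 and had no UMI in samples 2 and 3. PLA2G7, a secreted phospholipase of macrophages, was at 108, 779 and 363 CPM against at most 1.12 CPM (log2 7.88 ± 1.13, adjusted p = 1.53e-09).

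Complement and antigen presentation genes were less uniform. Of 13 tested complement genes (20 listed), 4 were higher (CFD, C1QB, C3 and C1QA). The median log2 was 0.72 (0.75 with genes without a UMI at their bound). CFD, complement factor D, was at 749, 177 and 982 CPM against 17.3, 9.30 and 12.6 CPM, and was not called with samples 1 and 2 (adjusted p = 0.0607). The subunits of C1q, which starts the classical pathway, are given with the differences between samples. Of 8 tested MHC class II genes (12 listed), HLA-DRA and CD74 were higher, with a list median of 2.18. CD74, the invariant chain, was at 31.5, 0 and 166 CPM and HLA-DRA at 43.8, 0 and 90.7 CPM, and the other cells had at most 2.04 CPM of either. The MHC class I list had 12 tested genes and a median log2 of -0.99 (-0.63 with genes without a UMI at their bound). Of these only PSMB9, an immunoproteasome subunit, was higher, at 74.0, 283 and 227 CPM against 10.9, 6.94 and 4.08 CPM, and it was not called with samples 1 and 2 (adjusted p = 0.498). With 2.19% of all genes tested called higher, 1 of 12 is not read as a result about this list. B2M, the shared light chain of class I molecules, was at 225, 0 and 0 CPM in myeloid cells against 691, 373 and 277 CPM, a log2 difference of -2.16 ± 0.83 that missed the threshold (adjusted p = 0.197). With all 3 samples it was -2.70 (adjusted p = 7.46e-06).

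Genes of the leukocyte actin cytoskeleton were higher in 12 of 23 tested, with a median log2 of 2.63. TMSB4X, the main actin-sequestering peptide, was at 12039, 17236 and 23518 CPM against 2354, 905 and 1076 CPM (log2 3.60 ± 0.49, adjusted p = 1.07e-10). ARPC2, a subunit of the ARP2/3 complex, was at 2429, 2088 and 2328 CPM against 221, 152 and 146 CPM. Every myeloid cell of the 3 samples had a UMI of TMSB4X. With samples 1 and 2 alone neither gene passed the threshold (adjusted p = 0.0556 and 0.0972), nor did they without the sample term (adjusted p = 0.33 and 0.148). CAPG, which caps actin filaments in macrophages, was at 223, 566 and 333 CPM against at most 6.74 CPM. GMFG, a haematopoietic regulator of actin branching, was at 255, 637 and 756 CPM against at most 4.44 CPM (log2 7.23 ± 0.96, adjusted p = 5.94e-11).

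Of 31 tested lysosome and cathepsin genes, 6 were higher, with a median log2 of 0.35. CTSK, a collagen-degrading cathepsin best known from osteoclasts, was at 590.5, 70.8 and 619.7 CPM against 6.10, 2.52 and 3.53 CPM (log2 7.22 ± 0.90, adjusted p = 1.36e-12). CTSH and CTSC were at 118, 283 and 574 CPM and at 91.8, 566 and 710.4 CPM, and neither was called with samples 1 and 2 (adjusted p = 0.502 and 0.585). Of 11 tested iron and haem genes, 5 were higher (CD163, FTH1, BLVRB, SLC11A1 and FTL), with a median log2 of 1.78. FTH1, the heavy chain of the iron store ferritin, was at 16839.5, 11007 and 12590.5 CPM against 3017, 2313 and 2183 CPM (log2 2.70 ± 0.46, adjusted p = 1.07e-06). It was not called with samples 1 and 2 (adjusted p = 0.445) or without the sample term (adjusted p = 0.422).

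Receptors and factors of M-CSF and TGF-beta signalling were higher in 6 of 15 tested genes, among them IKZF1, BCL2A1, TGFBR2, RUNX1 and CEBPA, with a median log2 of 1.78 (2.06 with genes without a UMI at their bound). The 7 tested chemokine and cytokine genes (26 listed) had a median log2 of -0.21, which turned to 0.78 with genes without a UMI at their bound. CXCR4 alone was higher, at 64.4, 70.8 and 181 CPM against 23.2, 9.30 and 4.49 CPM, and it was not called with samples 1 and 2 (adjusted p = 0.869). IL1B, the inflammatory cytokine, had no UMI in myeloid cells, and CCL3, a macrophage chemokine, was at 0, 0 and 106 CPM. None of 18 tested interferon-induced genes passed the threshold in either direction. Their median log2 was -0.92 (-0.86 with genes without a UMI at their bound), against -0.84 over all genes. IFITM3, an antiviral membrane protein, was at 304, 35.4 and 30.2 CPM against 969.8, 419 and 211 CPM. Its difference was -1.69 ± 0.76 (adjusted p = 0.349), and it passed the threshold with all 3 samples (adjusted p = 7.51e-05). None of 18 tested immediate early genes was called (median log2 0.14), and 1 of 15 cell cycle genes was, BIRC5, at 196, 70.8 and 227 CPM against 22.1, 9.30 and 8.45 CPM, while MKI67, the proliferation antigen, was at 4.11, 0 and 0 CPM. BIRC5 was not called with samples 1 and 2 (adjusted p = 0.615). Of 18 glycolysis genes, HK3 was called, at 8.22 CPM in sample 1 and 0 in samples 2 and 3. Over all genes tested, 2.19% were called higher and 0.278% lower. Counts of 0 or 1 in lists this short are not read as results about those lists.

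**Figure D4:**
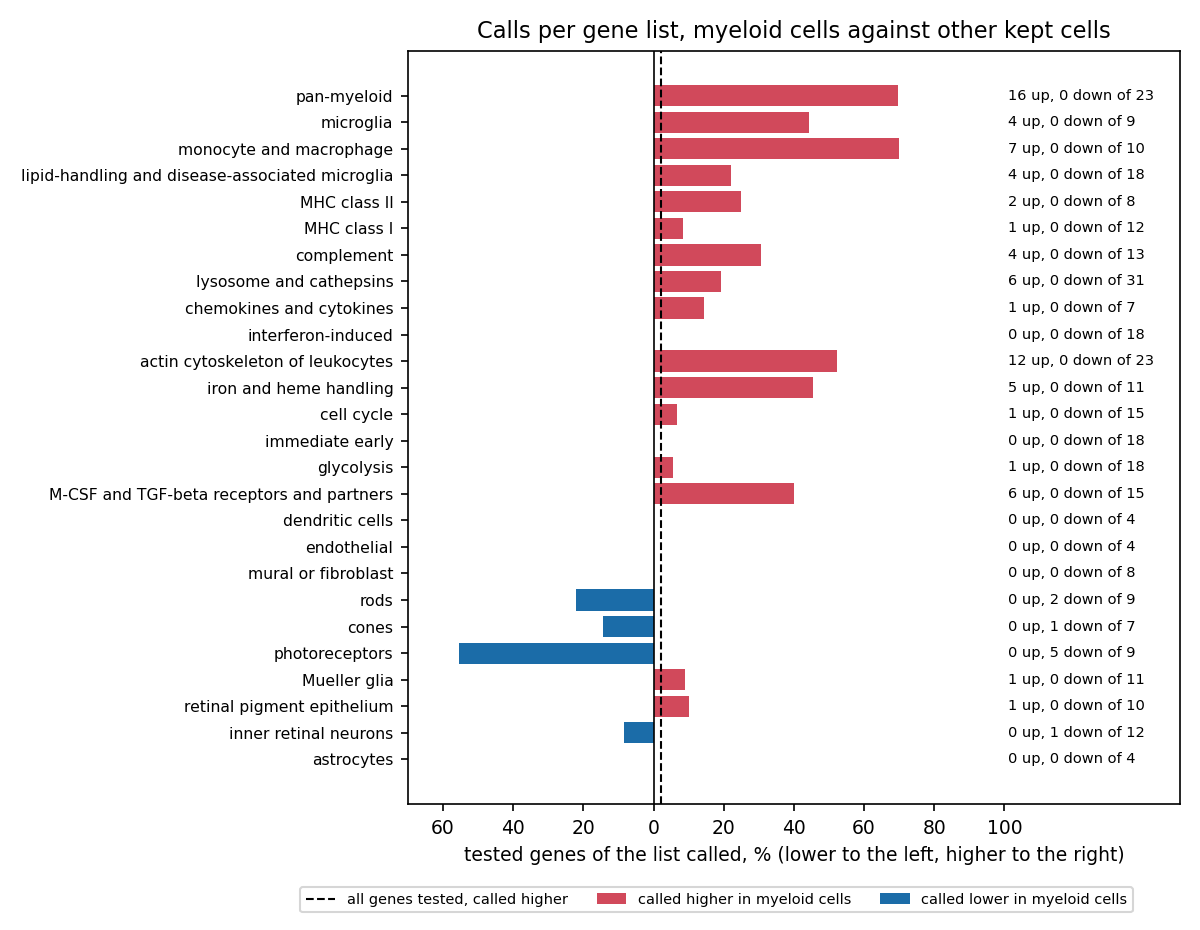
Percentage of tested genes called higher (red, right) or lower (blue, left) in myeloid cells for each gene list with at least 4 tested genes, with the counts at the right. Listed genes that were not tested are left out of these percentages. The dashed line is the 2.19% of all tested genes called higher; the pan-myeloid list had 16 of 23 and the monocyte and macrophage list 7 of 10, while the photoreceptor list had 5 of 9 called lower.

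Several of the genes with the largest differences are not myeloid markers. FKBP1C, a copy of the immunophilin gene FKBP1A (GRCh38 chromosome 6, 63211446 to 63213024, plus strand), was at 230.2, 389 and 181 CPM against 2.20, 0.788 and 0.263 CPM. ZNF90, a zinc finger gene, was at 1099, 1805 and 1421 CPM against 14.1, 10.9 and 7.47 CPM, and was detected in 176 of 190, 3 of 3 and 9 of 11 myeloid cells. AL136454.1, a clone-named gene that GENCODE release 29 lists as protein-coding (GRCh38 chromosome 1, 192716132 to 192716653, plus strand), was at 766, 319 and 348 CPM against 10.0, 0.788 and 1.67 CPM. MTRNR2L6, a nuclear copy of mitochondrial ribosomal RNA, was at 122, 106 and 106 CPM against at most 1.33 CPM. RPL10L, FKBP1C and MTRNR2L6 are copies of other genes and ZNF90 belongs to a large gene family, so their counts may belong to related sequences. Of 2130 tested LINC and clone-named genes, 23 were higher (1.08%), below the 2.19% of all genes. AC034114.2, another clone-named gene, was at 0, 708 and 544 CPM and was chosen after its values were seen. Without AL136454.1 and AC034114.2 the mean log2 ratio of LINC and clone-named transcripts was -1.84.

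The 6 named genes with the largest falls are genes of photoreceptors and retinal interneurons. The rule limited NRL and PDE6H, so low photoreceptor transcripts were partly chosen. PDC, phosducin of the phototransduction cascade, was at 10.96, 0 and 0 CPM in myeloid cells against 351, 399 and 444 CPM, and AIPL1, a chaperone of rod phosphodiesterase, was at 9.59, 35.4 and 15.1 CPM against 329.8, 703 and 675 CPM. NR2E3, the rod fate factor, had no UMI in any myeloid cell and was at 42.1, 150.4 and 182 CPM in the other cells. At those levels the myeloid cells of samples 1 and 3 would have held 42.7 UMIs, so with a floor of 3 UMIs over both they were at least 14.2-fold lower. GUCA1B, TMEM244 and CABP5 were the other 3, with adjusted p between 0.0127 and 0.0492. All 6 lost the call with samples 1 and 2 (adjusted p between 0.187 and 0.59). Of 9 tested general photoreceptor genes, 5 were lower and 0 higher.

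Transcripts of other cell types were looked for in the myeloid cells by marker lists. None of the 16 T or NK cell genes, 10 B or plasma cell genes and 7 erythroid genes had a UMI in transplanted sample 1. In samples 2 and 3 the T and NK list summed to 2 and 8 UMIs, from 1 and 3 of its 16 genes, or 70.8 and 121 CPM against 23.5 and 23.9 CPM in the other cells. The 12 neutrophil genes had 3, 0 and 8 UMIs, each time from at most 1 gene, and the 7 mast cell genes 2, 0 and 0 UMIs. The 11 dendritic cell genes summed to 10.96, 70.8 and 30.2 CPM, from 8, 2 and 2 UMIs, against 9.06, 38.9 and 34.6 CPM. None of the 4 tested was called, where 2.19% of all genes tested were called higher, so this count is not read as a result. FLT3, the receptor that dendritic cell progenitors need, had a log2 difference of 4.41 ± 1.69 (adjusted p = 0.196). Endothelial genes summed to 54.8, 70.8 and 45.3 CPM against 209, 145 and 135 CPM, and mural or fibroblast genes to 41.1, 0 and 15.1 CPM against 109.7, 66.2 and 54.3 CPM. These lists were lower in myeloid than in other cells in all 3 samples. The Mueller glia list summed to 12174.5, 2336 and 3446 CPM against 4668, 2593 and 1648 CPM, and VIM, an intermediate filament that macrophages also have, made up 11769, 2194 and 3340.3 CPM of it. RLBP1, a defining Mueller glia gene, was at 27.4, 0 and 0 CPM. TTR, a retinal pigment epithelium transcript, was at 973 CPM in the myeloid cells and 798 CPM in the other cells of transplanted sample 1. In samples 2 and 3 it had no UMI in myeloid cells and was at 0.788 and 6.80 CPM in the other cells. The pigment epithelium list summed to 1458, 248 and 196 CPM in myeloid cells against 1402, 475 and 378 CPM. MITF, a transcription factor of that list which macrophages also have, was called higher, at 82.2, 35.4 and 106 CPM against 8.16, 5.67 and 5.70 CPM (log2 3.97 ± 1.02, adjusted p = 0.00657). TTR is not a myeloid gene, and the part of free RNA in the levels of other genes was not tested.

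The myeloid cells of the 3 transplanted samples did not have the same profile. Of 165 genes of the myeloid lists with at least 10 UMIs over the 3 samples, 27 were lower in sample 1 than in both other samples by non-overlapping 95% Poisson intervals, and 10 were higher. Between samples 2 and 3 the intervals of 13 genes did not overlap. With 1 sample per Set these are descriptions with counting error only, and they were not adjusted for the number of genes. With TMM factors computed among the 3 sums, 18 of the 27 genes remained lower and all 10 remained higher, with 19 higher in all. C1QC, with fewer than 10 UMIs, and FN1, which is in no myeloid list, are given below but are not among the 165 genes. Sample 1 was processed with another Cell Ranger version than samples 2 and 3, so version, Set and experiment cannot be told apart.

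C1QA, C1QB and C1QC, the chains of C1q that resident macrophages and microglia make, were nearly absent in sample 1. C1QB was at 4.11 CPM (0.848 to 12.01) in sample 1 and at 991 (658 to 1432) and 982 CPM (758 to 1252) in samples 2 and 3. C1QA had 0 UMIs in 729889 in sample 1, and was at 389 and 574 CPM in samples 2 and 3, where 3 of 3 and 5 of 11 cells had it. Its call in the fit therefore rests on sample 3, and was lost when the selected cells had no UMI of NRL or PDE6H (adjusted p = 0.155). C1QC followed with 0, 106 and 90.7 CPM. BCL2A1, an anti-apoptotic gene of activated leukocytes, was at 0, 637 and 680.2 CPM, and was found in 0 of 190, 3 of 3 and 8 of 11 cells. CYBA, the small subunit of the phagocyte oxidase, was at 26.0, 672 and 605 CPM, and CTSB, a lysosomal cysteine protease, at 127, 1309.5 and 1118 CPM. SPP1, osteopontin of lipid-laden macrophages, was at 311, 4813 and 1542 CPM, and the other cells of sample 1 had more of it (675 CPM). FTL, the light chain of ferritin, was at 3268, 33587 and 23654 CPM while the other cells had 3691, 2603 and 2079 CPM. In sample 1 FTL was below the other cells, a direction that turned with TMM factors (5545 against 3994 CPM), and in samples 2 and 3 it was above them. Its log2 difference in the fit was 1.86 ± 0.52.

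Levels were higher in sample 1 for FABP4 (518 CPM, interval 467 to 573, against 0 and 0), B2M (225 CPM against 0 and 0), VIM (11769 against 2194 and 3340.3 CPM) and FOS (1691 against 142 and 333 CPM). The other cells of samples 1, 2 and 3 also had most in sample 1 of B2M (691, 373 and 277 CPM) and FABP4 (2.57, 0.158 and 0.0716 CPM). The same held for the sum of the immediate early list, which holds FOS (5765, 4066 and 3306 CPM). The part of free RNA in these differences was not tested. FN1, fibronectin, chosen after its values were seen, was at 3405 CPM in sample 1 and at 0 and 212 CPM in samples 2 and 3, and 149 of 190 cells of sample 1 had it. FTH1 was at 16839.5 CPM in sample 1 and at 11007 and 12590.5 CPM in samples 2 and 3, the reverse of the order of FTL. The counts at 0 allow up to 106 CPM in sample 2 and 45.3 CPM in sample 3, both below the level of FABP4 in sample 1. The intervals of CYBB overlapped in all 3 samples.

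**Figure D5:**
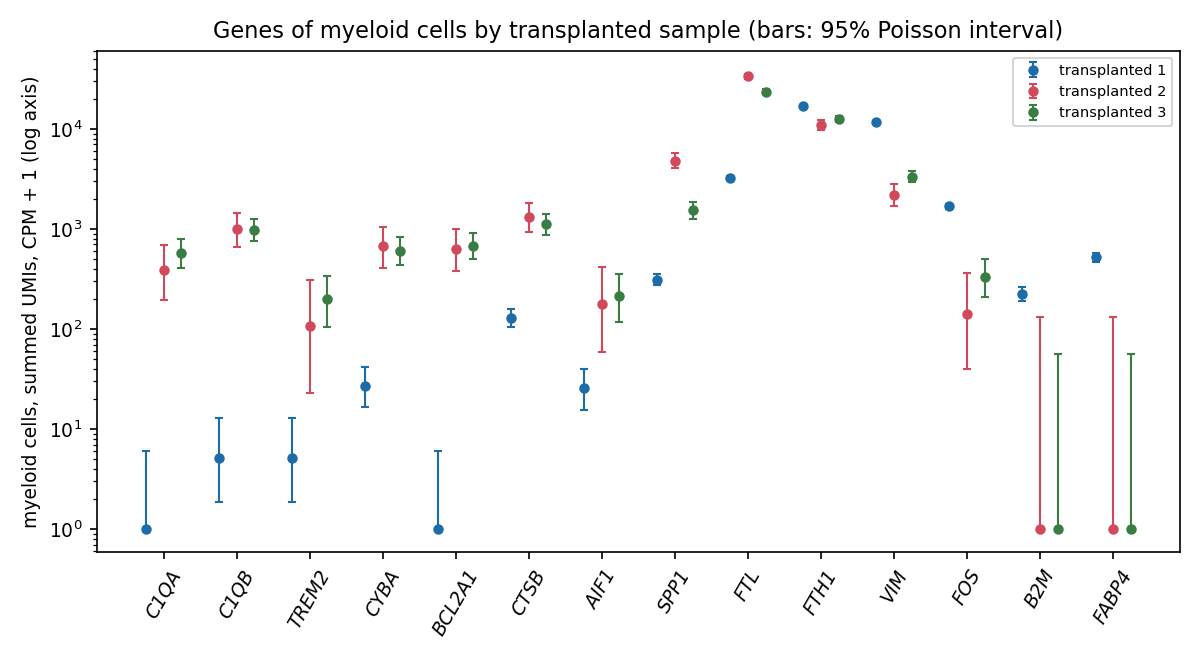
Level of 14 genes in the myeloid cells of transplanted samples 1 (blue, 190 cells), 2 (red, 3 cells) and 3 (green, 11 cells), as summed CPM + 1 on a log axis; bars are 95% Poisson intervals and cover counting error only. C1QA, C1QB, TREM2, CYBA, BCL2A1, CTSB, AIF1, SPP1 and FTL were lower in sample 1 than in samples 2 and 3, and VIM, FTH1, FOS, B2M and FABP4 were higher.

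The 6 libraries held between 6850189 and 108222149 UMIs, and the myeloid cells contributed 729889, 28255 and 66161 UMIs in transplanted samples 1, 2 and 3. Between any pair of libraries 0 to 54 kept cells had the same barcode, at most 1.01% of the smaller library, and 2 myeloid cells had a barcode that also occurred in another library.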

How the data were processed

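The deposited files hold raw UMI counts per gene and barcode from 10x Genomics 3' v3.1 libraries, with no normalization. Per the file headers, the authors used Cell Ranger 6.0.2 for Set 1 and 7.1.0 for Sets 2 and 3. The submitters' processing notes name GRCh38. The treatment of intronic reads is not given in the sources used here, and it changes the share of non-coding transcripts. Dog reads were not mapped separately, so levels in dog cells depend on sequence likeness.

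Counts were summed over myeloid and over other cells per sample. CPM is per 1000000 UMIs of the summed cells. The design foresaw a gene test over transplanted samples with at least 20 myeloid cells, and 1 sample had that many, so no test was possible as planned. The gene calls come from the alternative with at least 10 cells per sample (transplanted samples 1 and 3), which leaves 1 residual degree of freedom per gene before moderation: edgeR 4.0.16 in R 4.3.3, filterByExpr, TMM, robust quasi-likelihood fit, sample as a block. The SE of a log2 difference is the size of that difference divided by the square root of its F statistic. It rests on variance moderated across genes and is not a spread over samples. Both sums of a sample come from 1 library, so its pairing is given by construction. A test of transplanted against cultured myeloid cells was not possible with 1 cultured cell. Doublets were kept, and Scrublet (Scanpy 1.11.5) scores served as an alternative. Poisson and exact binomial intervals are at 95%. Gene types and positions are from GENCODE release 29 (34616 of 36601 genes matched). The scripts were tested on simulated counts.

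The selection rule, the 32 gene lists and the tests were chosen with earlier results of these data known. Named genes are the 20 most raised and the 6 most lowered at an adjusted p under 0.05, at least 100 CPM (mean, higher arm) and the same sign in both samples, without the 7 genes of the rule, plus APOE and up to 4 tested genes of smallest p from each of 17 lists for myeloid cells. Genes given by level only are members of the 32 lists, except MALAT1, RPS20, RPS2, FN1 and AC034114.2. RPS20 and RPS2 are extremes of the ribosomal ratios in these same data, and FN1 and AC034114.2 were chosen after their values were seen. Alternatives covered the selection rule, cell filter, doublets, depth, cells compared, scaling, low-count filter, block and left-out samples. Fitting all 3 transplanted samples, leaving out 2 clone-named genes, pairing the shares by Set, and TMM factors among the myeloid sums were added after seeing the data. The Sets are stated to be independent experiments. Some genes of these lists are not reported here.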

Additional observations from a re-analysis of the deposited data

Results flagged for a closer look

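Barcodes outside the cell filter were not part of any comparison. In transplanted samples 1, 2 and 3, 12 of 1204, 2 of 672 and 1 of 2518 such barcodes met the limits on the 5 myeloid genes, NRL and PDE6H (0.997%, 0.298% and 0.0397%). In cultured samples 1, 2 and 3, 0 of 2034, 0 of 1149 and 0 of 415 did, which allows up to 0.147%, 0.261% and 0.723%. The value of transplanted sample 1 lies above what cultured sample 1 allows. The counts of 2 and 1 in transplanted samples 2 and 3 are under 3, which would be 0.446% and 0.119% of their barcodes, and no difference from the cultured samples is drawn from them.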

How the results depend on the processing

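The higher share of myeloid cells in transplanted samples kept its direction under every alternative run, with differences of 0.391 (thinned to 1000 UMIs) to 1.05 percentage points (stricter cell filter), and 0.313 to 1.42 when 1 sample was left out. With the replicate block (the Set as a pair), the exact sign-flip p was 0.25, the smallest 3 pairs allow. The mean log2 ratio of LINC and clone-named transcripts ranged from -1.84 to -1.40, and from -1.77 to -1.38 with 1 Set left out.

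The counts of called genes moved. Genes higher, 371 as reported, were 643 against glia-like cells, 903 with all 3 samples, 664 without TMM, 624 with no low-count filter, 678 with DESeq2 1.42.0 and 218 with no replicate block. Genes lower, 47 as reported, were 633 with at least 5 UMIs over 3 genes, 437 with no NRL or PDE6H UMI, 556 with the stricter cell filter, 95 without the top doublet scores, 348 with cells under the cultured 1st percentile, 1137 against glia-like cells, 3149 with all 3 samples, 770 without TMM, 555 with no low-count filter, 367 with DESeq2 and 28 with no replicate block. Leaving out transplanted sample 1 or 3 gave 130 to 466 genes higher and 2 to 302 lower. The cause was not tested. At an unadjusted p under 0.05 there were 1892 genes.

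Of the 371 higher genes, 253 remained called without sample 1, 86 without sample 3 (with samples 1 and 2), 210 with no replicate block and 277 to 368 under the other alternatives. Over 81 named genes, 0 of 1075 values under an alternative reversed direction, 44 lost and 86 gained the call. Without sample 3, CD163, FBP1, APBB1IP and MTRNR2L6 lost it among the 20 largest rises, and TREM2 and CD36 were not tested. The depth of samples 2 and 3 limits what can be seen: a gene at 0 may lie below 106 and 45.3 CPM.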
